A study of Mus musculus with 79 samples.

Results

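Somatostatin (SST) neurons of the medial prefrontal cortex were compared between mice kept under unpredictable chronic mild stress (UCMS) and control mice. The libraries were taken by their cell-type label, SST neurons, and made up 20 of the 79 libraries of the series: 10 from UCMS mice and 10 from control mice, with 1 library per mouse. All mice were male C57Bl/6J animals, whose age is not given in the sources used here. The UCMS mice lived alone and met mild stressors in a changing order for 5 weeks, among them restraint, wet bedding, a tilted cage, predator odor, forced baths and shifts of the light cycle. The control mice lived in groups of littermates, so stress and single housing cannot be told apart. Both arms went through behavioural tests late in the 5 weeks. Each sample held the RNA of 130 cells that were found with a cell-type probe on 12 µm sections and cut out by laser, and its library was prepared with a low-input kit that keeps strand and takes total RNA. The comparison asks which genes of this neuron type differ after chronic stress.

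SST neurons are inhibitory interneurons that contact the dendrites of pyramidal neurons and release GABA together with the peptide somatostatin. Lower cortical somatostatin has been described in human depression, and earlier work in stressed mice has tied these cells to the unfolded protein response. In that response, misfolded protein in the endoplasmic reticulum draws the chaperone BiP, the product of Hspa5, away from sensor proteins; the sensors then slow protein synthesis through the initiation factor eIF2 and switch on chaperone genes through Atf4, Atf6 and Xbp1. Because a secreted peptide passes through the endoplasmic reticulum, this pathway is of particular interest in a neuron that makes much of it.

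The cell-type label was borne out by the markers. Sst had normalized counts (reads scaled by the size factor of their library) of 7132 to 20779 in control and 9869 to 16334 in UCMS libraries, and the GABA-synthesis genes Gad1 and Gad2 were read in all 20. Vip stayed at or under 110.4 and Pvalb at or under 115 in the UCMS libraries, against 304 and 279 in control mouse U10. The pyramidal gene Slc17a7 was present at 3124 ± 928 in UCMS and 3262 ± 990.3 in control libraries (SD, n = 10 each), so reads of a gene of excitatory neurons were present in both arms. Total reads ran from 7817407 to 13053871 per library and averaged 11014460 ± 1359854 in UCMS and 9835768 ± 1957889 in control libraries (SD; two-sided permutation test with 100000 resamples, p = 0.134, adjusted p = 0.857 over 20 library measures). Genes with at least 1 read numbered 15125 ± 1992 in UCMS and 13639 ± 2845 in control libraries (p = 0.193 by the same permutation test, adjusted p = 0.857). After every library was thinned to 7817407 reads the numbers were 15005 ± 1997 and 13556 ± 2833. The 3 libraries with the fewest genes were all controls, from mice U10 with 10126, U4 with 10669 and U6 with 10816.

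**Figure D1:**
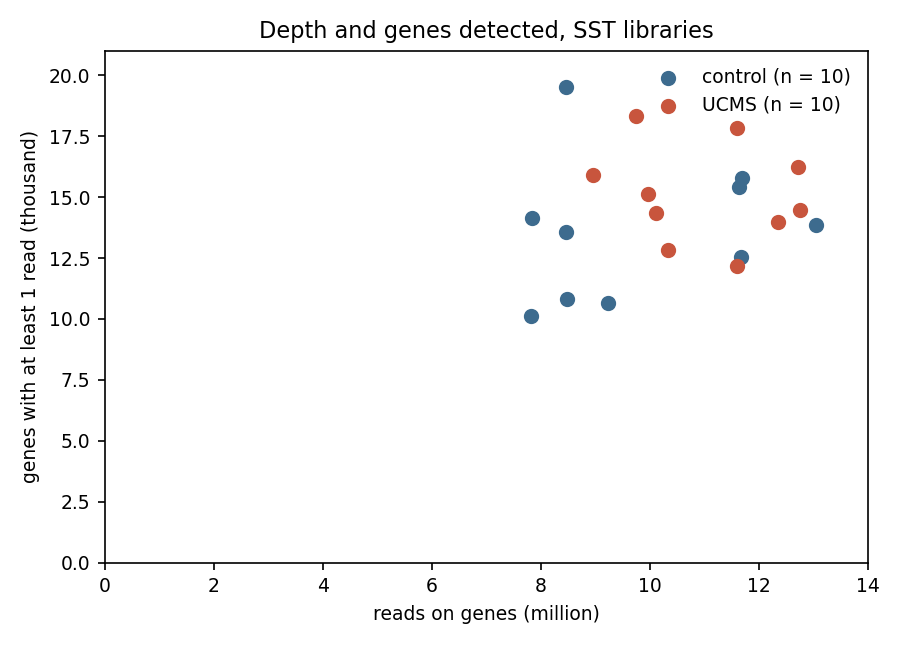
Total reads on genes (x axis) against the number of genes with at least 1 read (y axis) for the 10 control (blue) and 10 UCMS (red) libraries of SST neurons. The arms overlap on both axes, and the 3 libraries with the fewest genes, from 10126 to 10816, are controls.

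No gene of SST neurons passed an adjusted p of 0.05 after 5 weeks of UCMS. Among named genes with reads in most libraries, the transcription adaptor gene Eny2, the GABA-B receptor auxiliary subunit gene Kctd12 and the ER chaperone gene Hspa5 were at higher values in UCMS mice, and the opioid peptide gene Penk, the dynein adaptor gene Bicd1 and the growth factor gene Tgfb3 were at lower values, each with an unadjusted p under 0.01. limma's moderated test on log2(normalized count + 4) called 0 of 17108 genes (0%), with a smallest adjusted p of 0.774. At an unadjusted p under 0.05 it had 775 genes higher in UCMS (4.53%) and 204 lower (1.19%). edgeR on the recovered reads called 0 genes as well, with a smallest adjusted p of 0.0573 and with 337 higher and 484 lower at an unadjusted p under 0.05. DESeq2 on the same reads called 54 of 16898 genes (0.32%), 23 higher and 31 lower, of which 43 had a read in at most 4 of the 20 libraries. In bulk samples such as these, a change in the cells captured and a change in RNA per cell cannot be told apart.

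The excess of higher values depended on expression level, on a few libraries and on the measure. The median log2 fold change over all 17108 genes was 0.15, and 10425 (60.9%) were higher in UCMS. Here and in the lists below, higher means a log2 fold change, a difference of mean log values, above 0. By level class its median was 0.16 at mean normalized counts of 10 to 50 and 0.39 from 50 to 200. It was 0.11 from 200 to 1000, 0.01 from 1000 to 5000 and -0.01 at 5000 and above. The ratio of the arm means went the other way. Its median, UCMS over control, was under 1 in every class, from 0.90 at means of 10 to 50 to 0.99 at 5000 and above. Leaving out control libraries U4, U6 and U10, the 3 with the fewest genes, brought the median to 0.01 and the split at an unadjusted p under 0.05 to 523 higher and 390 lower, so that the higher share went from 79.2% to 57.3%. These libraries were picked for their few genes after the data were seen, and all are controls. Leaving them out takes values at 0 from the control arm alone, which by itself tends to lower log2 fold changes. Here and below, it describes the weight of these libraries and is not an independent check. When the fit held the number of genes detected as a covariate, the median was 0.04 and the split 414 against 301 (57.9% higher). Quantile normalization gave a median of 0.07 and 68.4% higher, and edgeR a median of 0.02 and 41.0% higher. A log2 fold change below is to be read against the median of its own level class rather than against 1 value for all genes. The medians of the gene lists depended on the tool too: over the 17 lists they ran from -0.13 to 0.29 in edgeR and from -0.19 to 0.24 in DESeq2. Of the 58 genes named by rule that had an unadjusted p under 0.05, 43 had one without U4, U6 and U10 and 15 did not.

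**Figure D2:**
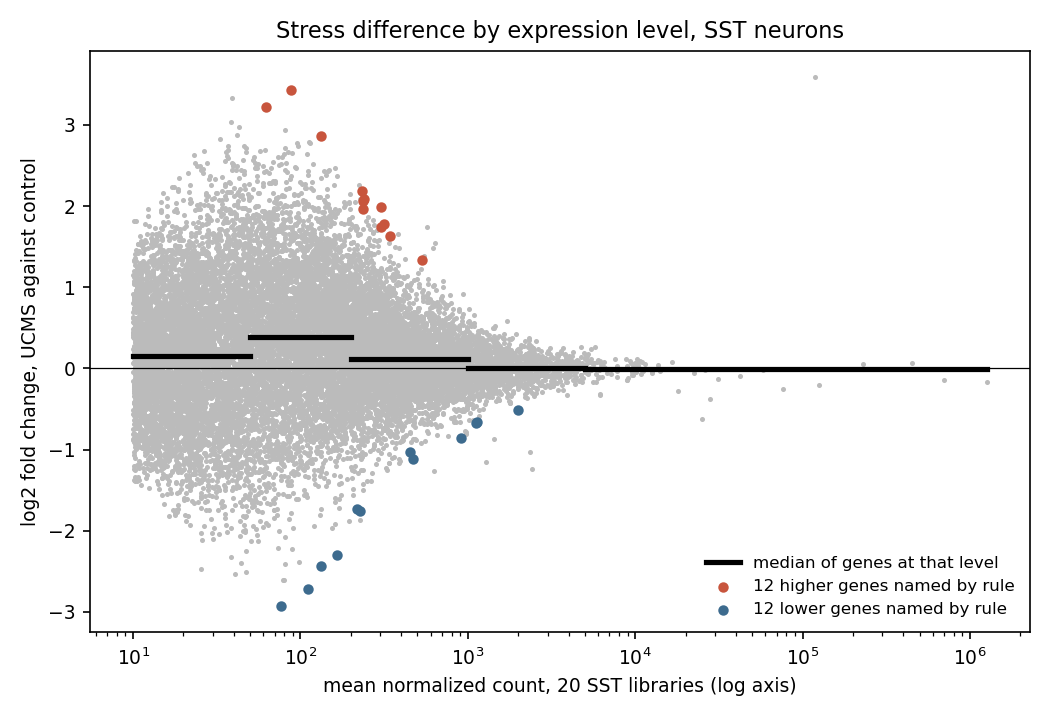
Log2 fold change of each of 17108 genes (UCMS against control, SST neurons) against its mean normalized count over the 20 libraries (log axis), with the median of each level class as black bars. The median is 0.16 at means of 10 to 50, highest at 50 to 200 (0.39), and falls from there to -0.01 at 5000 and above. The 12 higher (red) and 12 lower (blue) genes named by the test statistic lie among genes of low and middle level.

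Hspa5 (chr2:34771970-34777547, GRCm38, plus strand), which encodes the chaperone BiP, had normalized counts of 386 at the lowest, 941 at the median and 1622 at the highest in UCMS mice. In control mice the same values were 106, 607.96 and 1052. The arms overlapped, with 8 of 10 UCMS libraries above the control median. Means were 978 ± 410.5 in UCMS and 589.7 ± 330.0 in control (SD, n = 10 each), and the log2 fold change was 0.90 ± 0.28 (SE; unadjusted p = 0.00145, adjusted p = 0.774 in limma). It was 0.60 without control libraries U4, U6 and U10; adding genes detected as a covariate gave 0.69.

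The other listed genes of the unfolded protein response and of the wider integrated stress response did not move as a block. Of 33 measured, 23 were higher in UCMS (69.7%, against 60.9% of all genes) and 10 lower, with a median log2 fold change of 0.21. An unadjusted p under 0.05 was found for 2, both higher (6.06%, against 5.72% of all genes in either direction). Beside Hspa5 the second was Dnajb9, the ER co-chaperone ERdj4, at 208.6 ± 102 against 108.3 ± 102 (log2 fold change 1.53 ± 0.73, unadjusted p = 0.0367). Atf4, the transcription factor that is translated when eIF2 is phosphorylated, had medians of 523 in UCMS and 279 in control mice, and 10 of 10 UCMS libraries lay above the control median. Its means, 544 ± 186 and 443 ± 293, differed by less than the spread between libraries (log2 fold change 0.52 ± 0.35, p = 0.140 in limma's moderated test, unadjusted). Without control libraries U4, U6 and U10 the log2 fold change of Atf4 was 0.80 (unadjusted p = 0.0174, adjusted p = 0.92 in limma). Xbp1, the factor that the sensor Ire1 splices, had a log2 fold change of -0.28 ± 0.45. The eIF2 kinase gene Eif2ak3 (PERK) had one of -0.41 ± 0.51, and the pro-apoptotic target Ddit3 (CHOP) one of 0.55 ± 0.82, which was -0.21 without control libraries U4, U6 and U10. The sensor gene Atf6 stood at -0.32. Dnajb11, another listed gene, lay under the control median in all 10 UCMS libraries, at 183 ± 64.2 against 332 ± 118 (log2 fold change -0.78 ± 0.50, unadjusted p = 0.116 in limma). Asns was counted among the 23 higher genes by its log2 fold change of 0.43. Its mean was lower in UCMS, at 202 ± 64.9 against 358 ± 416, and 9 of 10 UCMS libraries lay under the control median. The list's median was 0.05 without those 3 libraries, 0.08 in edgeR and 0.02 in DESeq2.

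The ER stress response element is the promoter sequence through which Atf6 and Xbp1 act with the factor NF-Y, and it is shown here because Hspa5 carries it. It was searched as CCAAT and CCACG separated by 9 bases, on both strands, in RefSeq promoters (GRCm38.p6) that reach from 250 bases before to 50 after each gene's start. Of 35 listed genes 31 had such a promoter, and 8 of these held the element (25.8%), against 37 of all 27025 promoters (0.137%). Below are sites of 6 of the 8 genes, 5′ to 3′ on the strand that reads the element, with CCAAT and CCACG in capitals; Hsp90b1 has 2.
Hspa5, chr2:34772025-34772043: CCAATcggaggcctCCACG
Hsp90b1, chr10:86705638-86705656: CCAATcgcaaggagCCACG
Hsp90b1, chr10:86705533-86705551: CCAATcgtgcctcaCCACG
Calr, chr8:84847075-84847093: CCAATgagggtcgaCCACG
Canx, chr11:50325800-50325818: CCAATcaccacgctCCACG
Pdia6, chr12:17266491-17266509: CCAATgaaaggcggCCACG
Creld2, chr15:88819520-88819538: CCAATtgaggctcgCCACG
The 8 genes with the element did not share a direction: 6 were higher in UCMS and 2 lower, with a median log2 fold change of 0.15. All genes with a mean of 200 to 1000, the level class of Hspa5 and Pdia6, had a median of 0.11. Those with a mean of 1000 to 5000, the class of Calr, Canx and Hsp90b1, had one of 0.01. Hspa5 stood at 0.90 and Pdia6, a disulfide isomerase, at 0.66, while the lectin chaperones Calr and Canx were at 0.12 and 0.19, Hsp90b1 at 0.11 and Creld2 at -0.39. Such a match is a description of the letters in that window.

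The whole Hspa5 window, on the plus strand, shows where its element lies, with the first base 65 bases before the start.
Hspa5, chr2:34771840-34772139: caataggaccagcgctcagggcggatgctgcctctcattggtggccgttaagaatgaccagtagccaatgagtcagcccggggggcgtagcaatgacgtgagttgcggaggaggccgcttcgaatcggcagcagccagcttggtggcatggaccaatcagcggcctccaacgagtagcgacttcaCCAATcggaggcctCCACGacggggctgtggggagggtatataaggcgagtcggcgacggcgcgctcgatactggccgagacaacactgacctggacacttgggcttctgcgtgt

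The protein-making and protein-clearing machinery gave mixed values. Of 39 translation initiation factor genes, 30 had a log2 fold change above 0 (76.9%, against 60.9% of all genes) and 9 below 0. Some of the 30 had a lower mean in UCMS, such as Eif3l with 180 in UCMS and 255 in control mice. With 1 at an unadjusted p under 0.05 in each direction (5.13% in all, against 5.72% of all genes), the 39 genes had a median log2 fold change of 0.23. That median was 0.07 without control libraries U4, U6 and U10, 0.06 in edgeR and 0.02 in DESeq2. Eif3b, a scaffold subunit of the eIF3 complex, was the lower one, at 259 to 794 in UCMS against 463 to 1507 in control mice. Its means were 473 ± 162 and 844 ± 319 (log2 fold change -0.82 ± 0.30, unadjusted p = 0.00562), and 9 of 10 UCMS libraries lay under the control median. Eif2b4, a subunit of the exchange factor that recharges eIF2, was the higher one, at 181 ± 82.9 against 84.6 ± 65.0 (1.52 ± 0.75, p = 0.0430 in limma, unadjusted), and its log2 fold change was 0.87 without those 3 libraries (p = 0.159, unadjusted). Of 19 measured heat shock genes 15 were higher (78.9%, against 60.9% of all genes), none had an unadjusted p under 0.05 and the median was 0.24. It was 0.00 without control libraries U4, U6 and U10.

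Proteasome subunits had 19 of 31 genes higher (61.3%, against 60.9% of all genes) and a median of 0.18. An unadjusted p under 0.05 was found for 3 of them, all 3 higher (9.68%, against 4.53% of all genes higher). The median was 0.03 without control libraries U4, U6 and U10, 0.08 in edgeR and 0.02 in DESeq2. Psmd4, the ubiquitin receptor of the regulatory particle, ran from 654 to 1194 in UCMS and from 157 to 1092 in control mice. All 10 UCMS libraries exceeded the control median of 637, and the log2 fold change was 0.79 ± 0.28 (unadjusted p = 0.00459), or 0.51 without those 3 libraries. Psmd6 and Psmd13, both subunits of the lid, had log2 fold changes of 1.21 ± 0.55 and 1.39 ± 0.69. Without the same libraries they were 0.33 and 0.80, with unadjusted p of 0.436 and 0.156.

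Genes that carry proteins through the secretory pathway had 29 of 41 members higher (70.7%, against 60.9% of all genes) and a median of 0.25. An unadjusted p under 0.05 was found for 3, all higher (7.32%, against 4.53% of all genes higher). Spcs3, a signal peptidase subunit, had medians of 359 in UCMS and 179 in control mice (log2 fold change 1.05 ± 0.48, p = 0.0302), and 10 of 10 UCMS libraries lay above the control median. Sar1b, a small GTPase of vesicle budding at the ER, stood at 2.02 ± 0.90. It was at 0 in control libraries U4, U6 and U10, and without them its log2 fold change was 0.89 (p = 0.258, unadjusted). The cargo receptor gene Lman1 stood at 1.51 ± 0.74. The median of the list was 0.07 without those 3 libraries, 0.08 in edgeR and 0.01 in DESeq2.

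**Figure D3:**
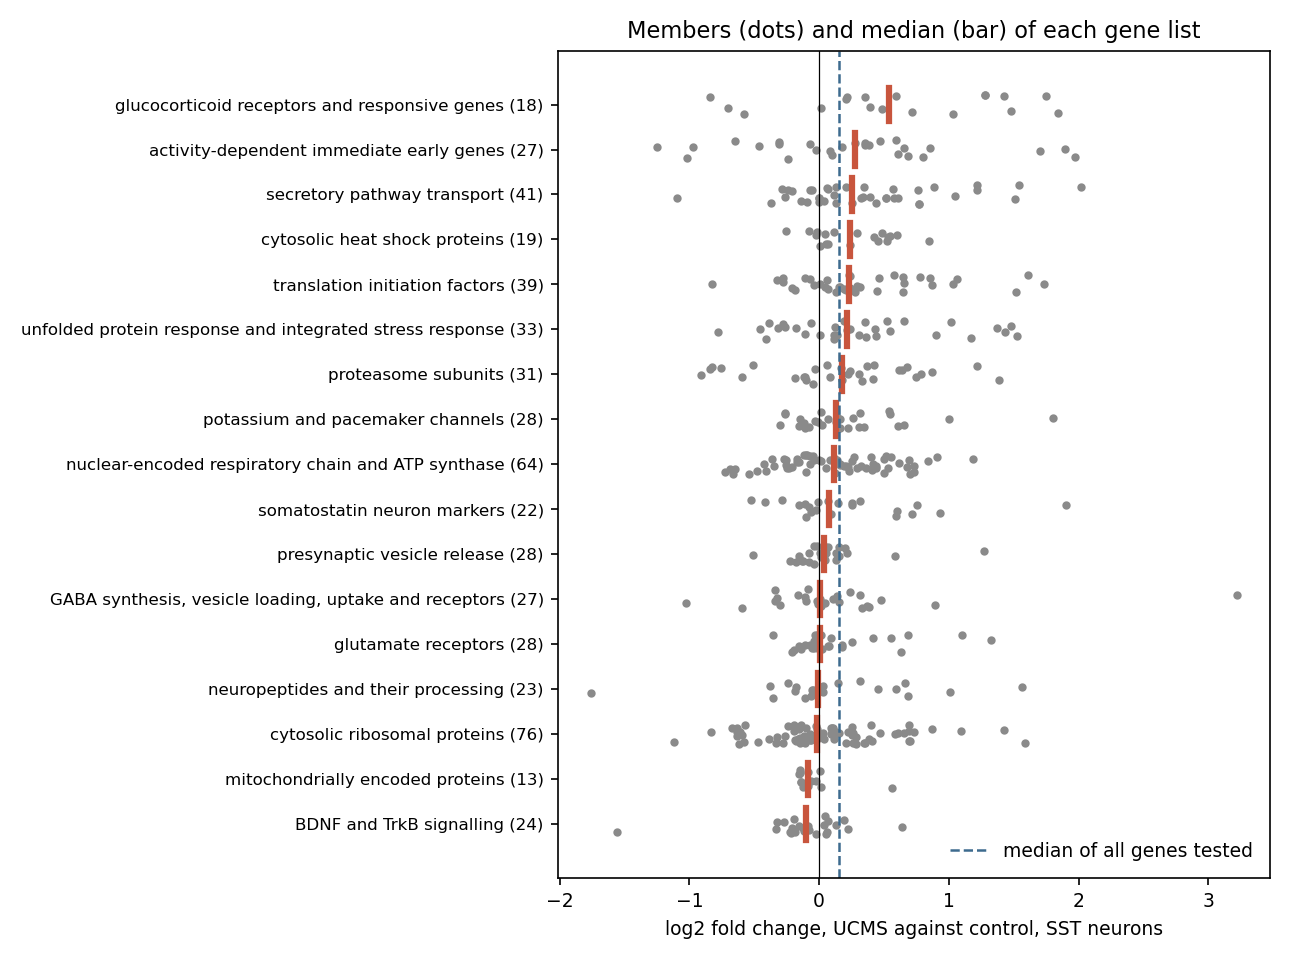
Log2 fold change (UCMS against control, SST neurons) of each measured member (grey dots) of 17 gene lists, with the list's median (red bar), the number of measured members in brackets and the median of all genes, 0.15, as a dashed line. The medians lie between -0.10 (BDNF and TrkB signalling) and 0.54 (glucocorticoid receptors and responsive genes), and members of each list lie on both sides of 0.

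Activity-dependent genes are switched on in neurons within minutes of firing. Nr4a1, an orphan nuclear receptor (chr15:101254269-101274795, plus strand), had 188 at the lowest, 433 at the median and 529 at the highest in UCMS mice. The control values were 0, 146 and 415. Control libraries split into a low set, between 0 and 79.6 in mice U1, U2, U6, U9 and U10, and a higher set from 212 to 415. All 10 UCMS libraries lay above the control median, although the arms overlapped, and the log2 fold change was 1.70 ± 0.54 (unadjusted p = 0.00154, adjusted p = 0.774 in limma). It was 1.13 without control libraries U4, U6 and U10.

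Other immediate early genes went in several directions. Fosl2 stood at 226 ± 229 in UCMS against 71.3 ± 87.7 in control mice (log2 fold change 1.97 ± 0.86, p = 0.0219 unadjusted; p = 0.0693 without control libraries U4, U6 and U10). Fosb was read in 10 UCMS and 3 control libraries (1.90 ± 0.94, p = 0.0433 unadjusted). Fos itself had medians of 45.2 in UCMS and 119 in control mice, with a log2 fold change of -0.97 ± 0.84. Npas4, a factor of inhibitory synapse formation, had one of -1.02 ± 0.86, Arc one of -0.24 ± 0.54 and Egr1 one of 0.27 ± 0.32. Over 27 measured genes 17 were higher (63.0%, against 60.9% of all genes). An unadjusted p under 0.05 was found for 3, all higher (11.1%, against 4.53% of all genes higher), and the median was 0.27. That median was -0.03 with genes detected as a covariate and -0.16 without control libraries U4, U6 and U10, so its sign depended on the setting.

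The cyclic AMP response element, to which the factor CREB binds in many of these genes, was searched on both strands as TGACG directly followed by TCA, and also as TGACG alone. The full form was in 3 of 24 immediate early gene promoters (12.5%) against 2.03% of all 27025, and TGACG, which the full form contains, in 17 of 24 (70.8%) against 23.0%. Nr4a1 has 4 matches to TGACG in its RefSeq window, all on the minus strand, and none to the full form. They are in capitals, as CGTCA, in its plus-strand sequence, shown because Nr4a1 led this list.
Nr4a1, chr15:101266596-101266895: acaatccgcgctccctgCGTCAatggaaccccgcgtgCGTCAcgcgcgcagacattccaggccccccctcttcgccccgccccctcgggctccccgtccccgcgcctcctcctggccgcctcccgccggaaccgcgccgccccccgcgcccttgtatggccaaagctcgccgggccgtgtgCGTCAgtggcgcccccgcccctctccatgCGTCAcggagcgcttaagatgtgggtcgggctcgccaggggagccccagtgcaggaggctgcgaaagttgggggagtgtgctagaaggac

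Glucocorticoid receptors and genes that answer to the stress hormone corticosterone had the highest median of the lists, 0.54. Of 18 measured members 15 were higher (83.3%, against 60.9% of all genes). An unadjusted p under 0.05 was found for 2, both higher (11.1%, against 4.53% of all genes higher). All genes with a mean of 50 to 200, the level class that holds the median level of this list (123), had a median of 0.39. The list stood at 0.29 in edgeR, 0.24 in DESeq2 and 0.23 without the 2 libraries with the fewest reads. It stood at 0.40 both with genes detected as a covariate and without control libraries U4, U6 and U10, and at 0.25 without U10 alone. Cdkn1a, a cell cycle inhibitor, was read in 6 UCMS and 2 control libraries and averaged 60.7 ± 74.6 against 9.62 ± 24.9 (log2 fold change 1.84 ± 0.89, p = 0.0377 unadjusted). Sult1a1, a sulfotransferase gene, was read in 6 UCMS libraries, at up to 129, and had 0 reads in every control library. Fkbp5, the co-chaperone that feeds back on the receptor, had a median of 143 in UCMS and 60.5 in control mice, with 9 of 10 UCMS libraries above the control median. Its log2 fold change was 1.28 ± 0.82 (p = 0.117, unadjusted), within the spread between libraries. The receptor genes themselves were at 0.21 ± 0.37 (Nr3c1, the glucocorticoid receptor, -0.01 without control libraries U4, U6 and U10) and -0.58 ± 0.55 (Nr3c2, the mineralocorticoid receptor). Tsc22d3 (GILZ), another standard target, stood at -0.84 ± 0.71. Most of these genes had low counts, and 9 of 10 measured microglial markers were also higher in UCMS (90%, against 60.9% of all genes). Their median log2 fold change was 1.05, and 2 had an unadjusted p under 0.05, both higher (20%, against 4.53% of all genes higher). The summed level of the 11 listed microglial markers ran from 154 to 1173 in UCMS and from 59.3 to 1636 in control mice, and none of the 11 was at 0 in all libraries of an arm. Their part in the values of the glucocorticoid list was not tested.

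**Figure D4:**
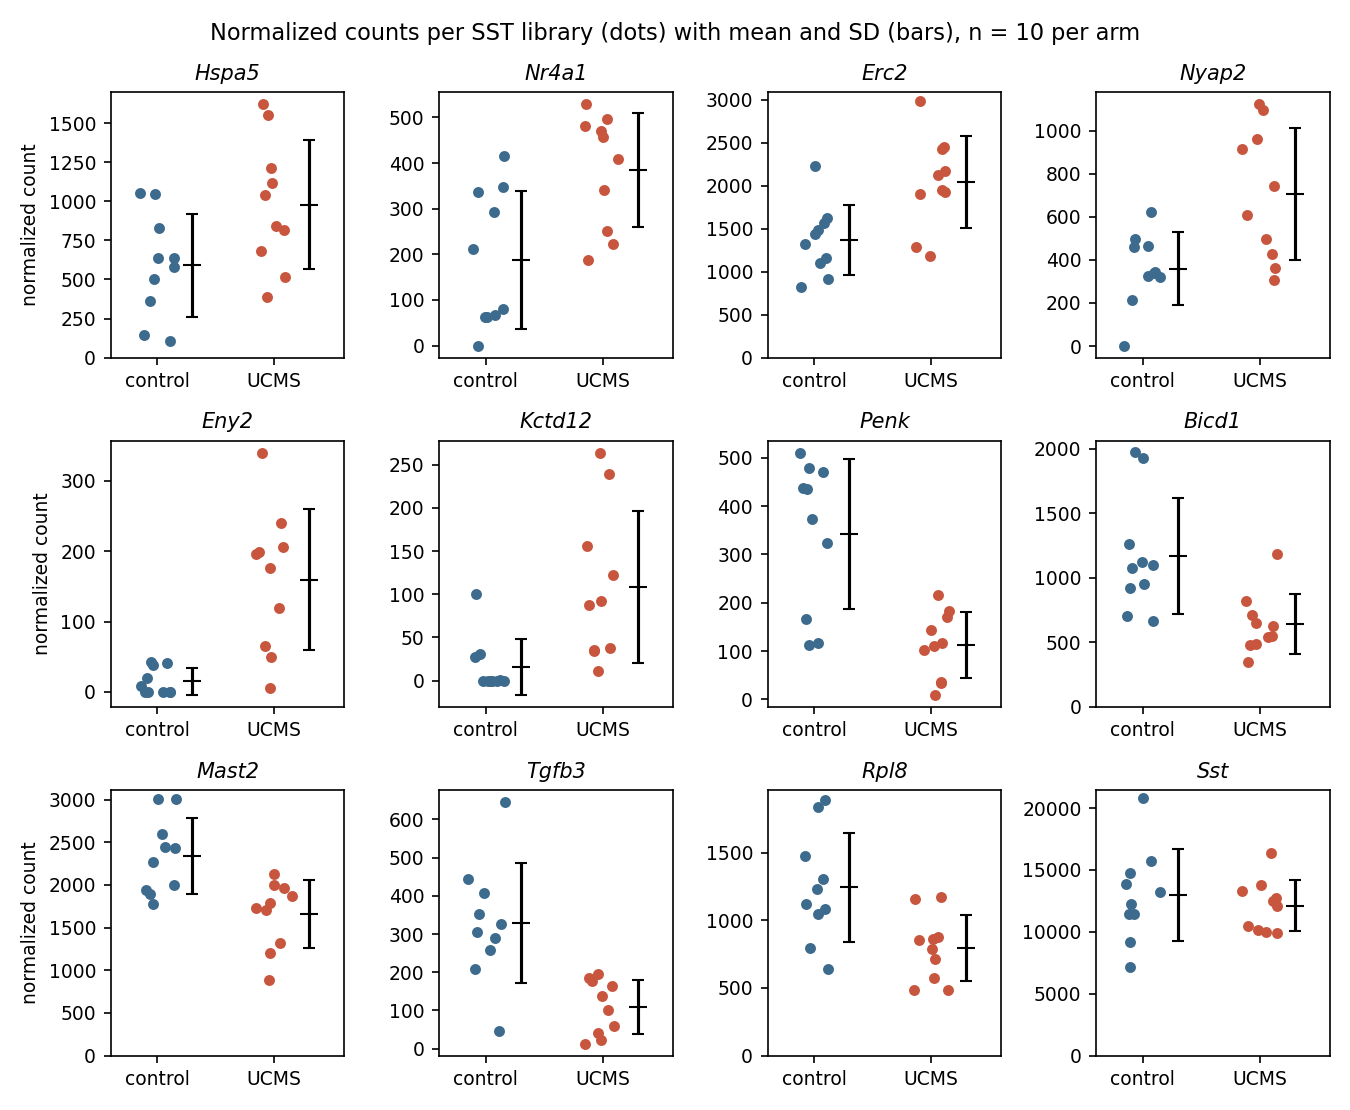
Normalized counts of 12 genes in each control (blue) and UCMS (red) library of SST neurons, with the mean and SD beside the points (n = 10 per arm). Penk, Mast2, Tgfb3 and Rpl8 lie under the control median in all 10 UCMS libraries, Nr4a1, Eny2 and Kctd12 above it in all 10, and Sst spans similar ranges in both arms. The control medians of Eny2 and Kctd12 stand at few reads or none, so a few reads place a library above them.

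Genes that define the cell type were near the same level in both arms. Sst had medians of 12283 in UCMS and 12726 in control mice and means of 12124 ± 2071 and 12981 ± 3745. Its log2 fold change was -0.06 ± 0.15, with a 95% interval of -0.39 to 0.26, and 0.02 under quantile normalization. Npy, which many SST cells make as well, stood at 2660.2 ± 789 and 2884 ± 1165, Grin3a, an NMDA receptor subunit gene, at 4613 ± 935 and 4631 ± 907, and Reln, the secreted protein reelin, at 9612 ± 1430.3 and 9036 ± 1335. Of 22 SST neuron markers 12 were higher (54.5%, against 60.9% of all genes) and 10 lower. An unadjusted p under 0.05 was found for 2, both higher (9.09%, against 4.53% of all genes higher). Crhbp, whose product binds the stress peptide CRH, was 1 of these: 337 to 1264 in UCMS against 204 to 959 in control mice (log2 fold change 0.59 ± 0.29, p = 0.0398 unadjusted). Hpse, a heparan sulfate-cutting enzyme gene, was the other, at 1.91 ± 0.95 (p = 0.0617 without control libraries U4, U6 and U10, unadjusted).

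Penk (chr4:4133531-4138819, minus strand), the precursor of the opioid enkephalins, had the most extreme value of the peptide list. Its normalized counts in UCMS mice were 9.92 at the lowest, 113 at the median and 216 at the highest. Control mice had 112, 405 and 509.8. The 7 highest libraries were controls, and control mice U1, U3 and U8, at 111.8 to 166, lay among the UCMS libraries. Means were 112 ± 68.7 and 342 ± 155, and the log2 fold change was -1.76 ± 0.60 (unadjusted p = 0.00332, adjusted p = 0.774 in limma, 0.291 in edgeR and 0.0921 in DESeq2). It stayed between -1.92 and -1.46 when any 1 library was left out. Penk is also made by VIP neurons, whose libraries held 1264 ± 728 in UCMS and 1296 ± 536 in control mice. Vip itself, in the SST libraries, stood at 16.4 ± 34.7 and 35.7 ± 94.8, and in 8 libraries of each arm it had a read. The part of VIP cells in the Penk values was not tested. Of 23 peptide and peptide-processing genes, 11 were higher (47.8%, against 60.9% of all genes) and 12 lower, with a median of -0.01. Scg3, a granin of secretory granules (0.68 ± 0.29, p = 0.0192), Cck (1.01 ± 0.51, p = 0.0490) and Crhbp were higher at an unadjusted p under 0.05. With Penk they made up 17.4% of the list, against 5.72% of all genes at that threshold.

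Synaptic gene lists were centred on 0. The presynaptic and glutamate receptor lists had median levels of 2751 and 1632, and all genes with a mean of 1000 to 5000 had a median log2 fold change of 0.01. The GABA list had a median level of 503, and all genes with a mean of 200 to 1000 had a median of 0.11. Of 27 genes of GABA synthesis, loading, uptake and reception, 15 were higher (55.6%, against 60.9% of all genes), with a median of 0.01. An unadjusted p under 0.05 was found for 1 of them (3.70%, against 5.72% of all genes). This was Kctd12 (chr14:102976581-102982637, minus strand), which binds GABA-B receptors and speeds their desensitization. It had 11.7 at the lowest, 89.8 at the median and 263 at the highest in UCMS mice, and 0, 0 and 100.3 in control mice, where 4 libraries held a read. The log2 fold change was 3.23 ± 0.95 (p = 0.000729 unadjusted, adjusted p = 0.774 in limma) and 2.75 without control libraries U4, U6 and U10. Its family member Kctd8 stood at -1.03 ± 0.58. Gad1 was at -0.11 ± 0.12 and Gad2 at -0.08 ± 0.11.

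Among 28 measured presynaptic genes the median was 0.04, and 1 had an unadjusted p under 0.05 (3.57%, against 5.72% of all genes). This was Erc2, a scaffold of the active zone (chr14:27622428-28478537, plus strand). Its values were 1188, 2041 and 2982 at the lowest, median and highest in UCMS mice, against 820.1, 1378 and 2231 in control mice. The arms overlapped, with 8 of 10 UCMS libraries above the control median, and the log2 fold change was 0.59 ± 0.18 (p = 0.00116 unadjusted; adjusted p 0.774 in limma, 0.0573 in edgeR and 0.214 in DESeq2). It was 0.57 without control libraries U4, U6 and U10 and 0.64 with genes detected as a covariate. Bsn, a neighbouring scaffold of the active zone, was at -0.04 ± 0.07. Stx1a, the plasma membrane SNARE syntaxin, was at -0.51 ± 0.26.

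Glutamate receptor genes were 14 higher (50%, against 60.9% of all genes) and 14 lower, with a median of 0.00. In each direction 1 had an unadjusted p under 0.05 (7.14% in all, against 5.72% of all genes). Grm7, a presynaptic metabotropic receptor gene, was at 1079.5 ± 390.3 against 757 ± 309 (0.63 ± 0.25, p = 0.0121 unadjusted), but at 0.21 without control libraries U4, U6 and U10 (p = 0.348, unadjusted). Gria3, an AMPA receptor subunit, was lower in UCMS, at 1908 ± 347 against 2455 ± 523 (-0.36 ± 0.16, p = 0.0235 unadjusted), with 9 of 10 UCMS libraries under the control median. Potassium and pacemaker channel genes had 18 of 28 members higher (64.3%, against 60.9% of all genes), a median of 0.13 and none at an unadjusted p under 0.05. That median was 0.05 without control library U6 alone, 0.01 without U4, U6 and U10 and 0.02 in DESeq2. BDNF and TrkB signalling genes had 9 of 24 higher (37.5%, against 60.9% of all genes) and a median of -0.10. That median was -0.01 without control library U3 and -0.19 in DESeq2, and the receptor gene Ntrk2 was at 0.07 ± 0.10. Bdnf itself lay under the level filter and was not tested.

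Of the 17 lists, that of ribosomal proteins alone had more lower than higher genes at an unadjusted p under 0.05. Of 76 measured, 36 were higher (47.4%, against 60.9% of all genes) and 40 lower, with a median of -0.02. That median was -0.08 without control libraries U4, U6 and U10, -0.09 in edgeR and -0.14 in DESeq2. All genes with a mean of 200 to 1000, the class of this list's median level (382), had one of 0.11. Lower genes with an unadjusted p under 0.05 numbered 6 (7.89%, against 1.19% of all genes), among them Rpl8, Rpl6 and Rps3a1. Without U4, U6 and U10, Rpl6 was at -0.40 (p = 0.107 in limma, unadjusted). Rpl8 had 483, 823 and 1172 at the lowest, median and highest in UCMS mice against 643, 1175 and 1892 in control mice. All 10 UCMS libraries lay under the control median (log2 fold change -0.63 ± 0.23, p = 0.00727 unadjusted). Ribosomal protein genes have many near-identical pseudogenes, so reads could be split between copies and their values are uncertain. All 13 mitochondrially encoded protein genes were measured, 3 were higher (23.1%, against 60.9% of all genes) and 10 lower, and none had an unadjusted p under 0.05. Their median was -0.09, and that of all genes with a mean of 5000 or above was -0.01. Nuclear genes of the respiratory chain and ATP synthase had a median of 0.12, whose sign changed with the libraries and the tool: it was -0.08 without control library U10, -0.06 without U4, U6 and U10, -0.07 without the 2 libraries with the fewest reads, -0.02 in edgeR and -0.07 in DESeq2. Of these 64 nuclear genes, 1 in each direction had an unadjusted p under 0.05 (3.125% in all, against 5.72% of all genes). They were Atp5h at 0.73 ± 0.27 (p = 0.00629) and Atp5c1 at -0.68 ± 0.32 (p = 0.0353, and 0.0570 without U4, U6 and U10, unadjusted), subunits of the same enzyme.

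Outside the lists, the gene with the most extreme statistic was Eny2 (chr15:44428042-44438256, plus strand), a subunit of the SAGA coactivator and of the mRNA export complex TREX-2. It ran from 5.96 to 339 in UCMS mice, with a median of 186, and from 0 to 42.7 in control mice, with a median of 4.08 and 5 libraries at 0. UCMS library U603 lay among the controls and the other 9 above them. The log2 fold change was 3.43 ± 0.94 (p = 0.000253 unadjusted; adjusted p 0.774 in limma, 0.171 in edgeR and 0.102 in DESeq2). Next came Nyap2, an adaptor of PI3-kinase signalling in neurons, at 704 ± 306 against 358 ± 169.7 (1.33 ± 0.38). Its value without control library U10, where it stood at 2.40, was 0.74. Haghl followed at 2.18 ± 0.64. The pyramidal markers had 6 of 10 higher and a median of 0.06, and their summed level was 5932 ± 1091 in UCMS and 6041 ± 1556 in control mice. Other higher genes by rank were Spata5, Elac1, Pdk3 (a pyruvate dehydrogenase kinase), Vps50 (a subunit of an endosomal tether), Fads3, Sclt1 and Mat2b (a subunit of methionine adenosyltransferase), at 1.64 to 2.87, and at 0.60 to 1.79 without control libraries U4, U6 and U10. Of the 12 higher genes ranked by statistic, 11 were at 0 in at least 1 of control libraries U4, U6 and U10. None of the 12 was at 0 in a UCMS library.

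None of the 12 lower genes ranked by statistic was at 0 in control libraries U4, U6 or U10, and 4 were at 0 in at least 1 UCMS library. Bicd1 (chr6:149408886-149563329, plus strand) links cargo to the motor dynein, and it had 348, 585 and 1182 at the lowest, median and highest in UCMS mice against 666, 1088 and 1978 in control mice. All but 1 UCMS library lay under the control median. The log2 fold change was -0.85 ± 0.25 (p = 0.000741 unadjusted; adjusted p 0.774 in limma, 0.0573 in edgeR and 0.0397 in DESeq2) and -0.62 without control libraries U4, U6 and U10. Mast2, a kinase gene, stood at 1659.5 ± 395 against 2337 ± 445 (-0.51 ± 0.17), with every UCMS library under the control median of 2352. Tgfb3, a secreted growth factor, had 13.4, 119 and 195 at the lowest, median and highest in UCMS mice against 47.1, 317 and 645 in control mice (-1.74 ± 0.62). Control library U8, at 47.1, was the only control library to lie within the range of the UCMS libraries. Ptk2b, a calcium-activated tyrosine kinase, stood at 908 ± 348 against 1354 ± 391 (-0.66 ± 0.22). Further lower genes were Nsmce3, Blvra (biliverdin reductase), Gdi2 (a Rab inhibitor), Prrg3, Bphl and Hs3st5 (a heparan sulfate sulfotransferase), at -2.93 to -0.67. In DESeq2, Bicd1 was called with 4 others that had a read in at least 10 libraries: Slc9a9, an endosomal sodium-proton exchanger, at -1.42, Cntn4, a neuronal adhesion protein, at 0.84, and the predicted genes Gm4366 and Gm15487.

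Whether SST neurons differed from other cell types under stress was tested as the SST difference minus the mean of the differences in pyramidal (PYR), parvalbumin (PV) and VIP neurons of the same mice. limma called 0 of 17427 genes (0%), with 482 higher and 327 lower at an unadjusted p under 0.05, a smallest adjusted p of 0.694 and 0 calls with the mouse as a replicate block. Without SST control libraries U4, U6 and U10 it called 0 genes too, and the split at an unadjusted p under 0.05 turned to 216 higher and 459 lower. The most extreme was again Bicd1, at -0.85 ± 0.26 in SST neurons in the fit over all types. In PYR, PV and VIP neurons it was at 0.45, 0.38 and 0.32, and the contrast was -1.24 ± 0.31 (unadjusted p = 7.02e-05, adjusted p = 0.694 in limma). Rad54l2, a helicase gene, showed the opposite arrangement, at 1.27 in SST neurons and -0.86, -0.75 and -0.84 in the other types (contrast 2.09 ± 0.54). Vps50, Zfp322a and Sh3bp5 had contrasts of 2.21 ± 0.58, 2.99 ± 0.79 and 2.20 ± 0.59, and Haghl had 2.61 ± 0.71. On the lower side Zfp719, Bphl, Mrpl52 and Tbc1d2 followed Bicd1, from -3.18 to -2.97. The contrasts of several of these genes were much nearer to 0 without U4, U6 and U10: 1.33 for Rad54l2, 1.38 for Vps50, 1.42 for Zfp322a, 0.53 for Sh3bp5 and -1.80 for Tbc1d2. In the SST libraries alone, Rad54l2 was then at 0.51 (p = 0.141, unadjusted), Zfp322a at 0.69, Sh3bp5 at 0.41 and Tbc1d2 at -0.87. The contrast of Bicd1 was -1.003 ± 0.32 without them (p = 0.00217, unadjusted), and those of Haghl, Zfp719, Bphl and Mrpl52 were 2.17, -2.99, -2.52 and -2.95.

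**Figure D5:**
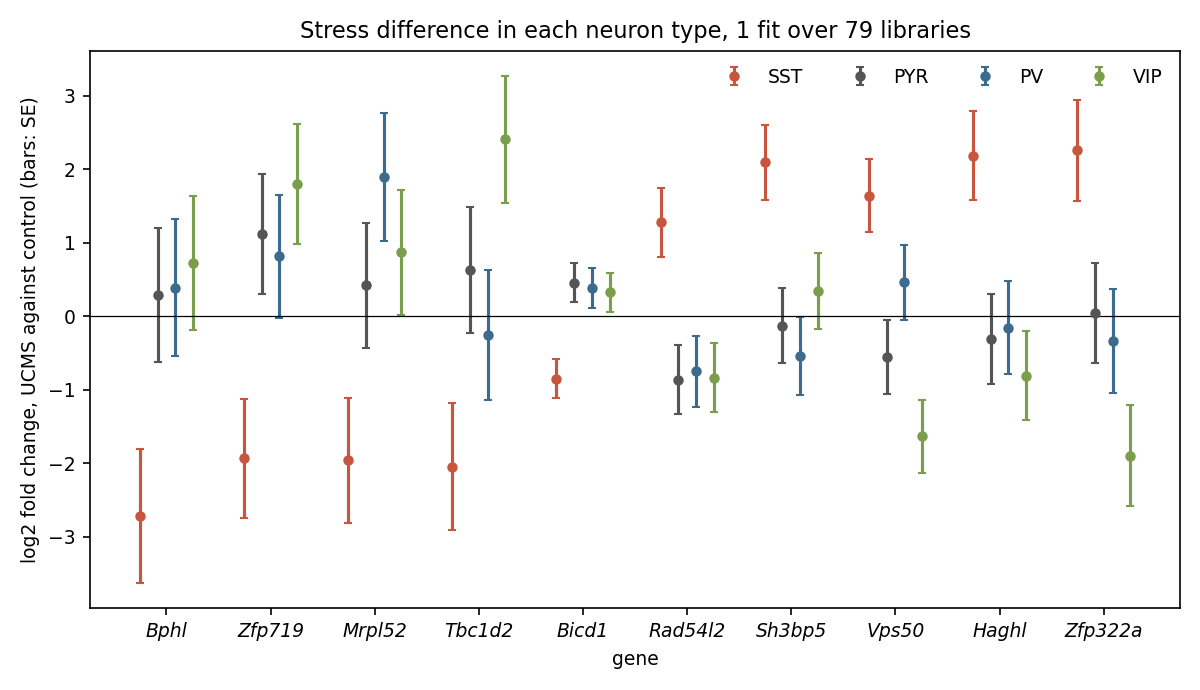
Log2 fold change (UCMS against control) with its SE in each of 4 neuron types, from 1 fit over 79 libraries, for the 10 genes whose SST difference stood furthest from the mean of the other types. Bicd1 is at -0.85 in SST neurons and between 0.32 and 0.45 in the other types, and Rad54l2 at 1.27 against -0.86 to -0.75; without SST control libraries U4, U6 and U10 the SST value of Rad54l2 was 0.51 and that of Bicd1 -0.62.

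For the genes described above, the same contrast gave values of 0.79 ± 0.35 for Hspa5 (unadjusted p = 0.0256), whose difference in PYR, PV and VIP neurons was 0.08, 0.13 and 0.12. Without SST control libraries U4, U6 and U10 the Hspa5 contrast was 0.49 ± 0.36 (p = 0.174, unadjusted). For Erc2 it was 0.58 ± 0.22 (p = 0.00843), beside 0.26, -0.09 and -0.15. Penk had -2.19 ± 0.87 (p = 0.0131), beside 0.42, 0.87 and -0.01. For Nr4a1 the contrast was 1.21 ± 0.66 (p = 0.0706), or 0.64 without those 3 libraries, and for Fos, which stood at 1.53, 1.14 and 1.59 in the other types, it was -2.39 ± 1.03 (p = 0.0217). Crhbp, at -0.02 ± 0.94, and Mast2, at -0.32 ± 0.19, had contrasts with unadjusted p of 0.985 and 0.0975. None of these passed an adjusted p of 0.05 in limma (adjusted p = 0.997 or above).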

How the data were processed

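Each value is a signal, the normalized count of a gene in a library, which the authors obtained by scaling read counts with a size factor and deposited in that form. The submitters' processing notes name HISAT2, SAMtools 1.3, DESeq2 and the build GRCm38 (mm10). Not given in the sources used here were read counter, annotation and strand setting, so reads of overlapping genes, antisense partners and near-identical copies cannot be told apart. Of 38879 genes, 38636 had an identifier in GENCODE M21; 26 symbols were dates and 183 were blank. In every SST column, 100% of values were whole multiples of a 1-read step, within 0.001 reads, and the reads so recovered gave totals and count tests. No SST libraries were identical, and they correlated at 0.730 to 0.879. SDs measure the spread between libraries, each from 1 mouse, so differences between mice, captures and library preparations cannot be told apart in them. SEs are limma's moderated errors of a difference between arms or of a contrast. Depth limits the precision of low genes.

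UCMS and control were compared over the 20 SST libraries by limma 3.58.1 (trend, robust) on log2(normalized count + 4), keeping genes whose mean reached 10. Benjamini-Hochberg adjusted p-values were read at 0.05. Because fold changes compare mean log values, the added 4 shrinks those of low genes. Widely varying libraries can push them past the ratio of means or give them the opposite direction. The contrast with the other types used all 79 libraries in 8 groups. A mouse number marks the same animal in each type by the labels, so the block was fitted too, although libraries of 1 mouse did not deviate together (median correlation 0.0077 over 117 pairs, 0 of them above 0.1). On simulated data the SST test recovered 9% of 2-fold and 24% of 4-fold changes among 17108 genes, with 1 false call, and the contrast 7% and 27% among 17427. Alternatives were edgeR 4.0.16, which called 0 genes, DESeq2 1.42.0, which called 54, and other pseudocounts, filters, scalings, covariates and left-out libraries. Thinning all libraries to 7817407 reads and leaving out the 3 libraries with the fewest genes were chosen after seeing the data.

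Gene lists are described by counts and medians, with no set test. The genes named are the 12 per direction with the most extreme statistic among named protein-coding genes read in at least 10 of 20 libraries at a mean of at least 50, up to 4 members of each list, a fixed set, and the 5 per direction of the contrast. The SST libraries, the lists and the named sets were chosen with earlier results of these data known. Other genes named (Atf6, Dnajb11, Asns, Eif3l, genes with the promoter element, Nos1, Rcc2 and the DESeq2 calls) were added after their values were seen. A few of the genes chosen by these rules are not reported here.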

Additional observations from a re-analysis of the deposited data

Results flagged for a closer look

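In 30 of 258 groups of 10 libraries, 1 library stood further from its nearest neighbour than Dixon's test allows at the 95% level. Distances were taken on log2(normalized count + 4), where a value at or near 0 lies far from the rest, while the values below are normalized counts. For normally distributed values chance alone gives about 1 in 20, and whether these log values are normal was not tested. Control library U10, 1 of the 3 with the fewest genes, was the lowest for Nyap2 (2.40), Gdi2 (315), Cox5b (97.3), Pdia4 and Nr4a1 (both 0), and the highest for Pvalb (279) and Vip (304), markers of other interneuron types. Control library U6 was the lowest for Mat2b and Rad54l2 (both 0), Junb (12.3), Psmc3 (22.2) and Sv2a (1863), and U4 for Grik4 (0). Among the other controls, U8 was the lowest for Tgfb3 (47.1) and U1 for Kctd8 (37.2) and Npy (778).

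In the UCMS arm, library U606 was the lowest for Fosl2, Tsc22d3 and Ddit3 (all 0) and for the kinase gene Ptk2b (259). Library U607 was the lowest for Sgk1 (0), Dnaja2 (391) and Egr1 (332), and U602 for Fkbp5 (17.5) and Sos1 (347). Eny2 had its lowest value in U603 (5.96), mt-Nd3 in U604 (177), Atp5h in U601 (401) and Ntrk2 in U608 (3270.0), while Gad1 had its highest in U609 (5117). Whether these values come from the mice or from the libraries was not tested.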

How the results depend on the processing

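limma's count of 0 genes past an adjusted p of 0.05 was the same under every alternative run with limma except the removal of control libraries U4, U6 and U10, which gave 1 (Nos1, the nitric oxide synthase of an SST subtype, at 0.63, adjusted p = 0.0224 in limma, against 0.25 with all libraries), and DESeq2 gave 54. Of genes at an unadjusted p under 0.05, the higher ones numbered 447 with a mean of at least 50, 414 with genes detected as a covariate, 337 in edgeR and 359 in DESeq2; the lower ones numbered 484 in edgeR, 455 in DESeq2 and 390 without those 3 libraries. Leaving out 1 library at a time gave 688 to 962 higher and 175 to 296 lower. With the mouse as a replicate block the contrast with other types had 0 calls, as without it, and the block changed no other call. The sign changed for Cort (-0.69 in DESeq2, -0.65 in edgeR, -0.19 with library weights, -0.0931 with genes detected as a covariate), Vip (0.0379 in DESeq2, 0.0324 with weights, 0.66 without the 2 libraries with the fewest reads), Npy (0.12 with weights, 0.0431 with genes detected and 0.00231 with the protein-coding share as covariates, 0.00573 with quantile normalization), Grin3a (0.0469 in edgeR, 0.00212 with weights, 0.0314 with quantile normalization, 0.0160 when scaled to protein-coding reads, 0.0445 with glial level as a covariate), Bsn (0.0126 in edgeR), Sst (0.0194 with quantile normalization), Hsp90aa1 (-0.0349 with weights), Elfn1 (0.00475) and Sgk1 (-0.0459) with glial level, and Sgk1 (-0.11) without the 2 libraries with the fewest reads. Without U4, U6 and U10 the sign changed for Hsp90aa1 (-0.0268), Vip (0.23), Npy (0.11), Cort (-0.63), Nr3c1 (-0.00796), Sgk1 (-0.26), Ddit3 (-0.21) and Bsn (0.0208). Leave-one-out ranges that crossed 0 were -0.58 to 0.36 for Vip, -0.21 to 0.63 for Cort, -0.16 to 0.00519 for Elfn1, -0.0783 to 0.0489 for Grin3a, -0.22 to 0.0632 for Npy, -0.0222 to 0.15 for Ntrk2, -0.10 to 0.93 for Sgk1, -0.14 to 0.0148 for Slc17a7, -0.15 to 0.0196 for Sst and -0.44 to 0.00637 for Xbp1. The causes were not tested.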

Other observations

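Rcc2, a chromatin-bound regulator of mitosis and of Rac signalling, was the 1 gene of 17108 whose arms did not overlap, and it was picked after its values were seen. It ran from 239 to 441 in UCMS mice and from 24.0 to 237 in control mice, with means of 339 ± 74.8 and 160.2 ± 67.5 (SD, n = 10 each). Its log2 fold change was 1.22 ± 0.52 (adjusted p = 0.823 in limma) and 0.89 without control libraries U4, U6 and U10, and in PYR, PV and VIP neurons it was 0.18, 0.43 and -0.77.

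By gene class, 62.2% of 13553 measured protein-coding genes were higher in UCMS, as were 53.0% of 445 lincRNAs, 43.5% of 62 snoRNAs and 48.8% of 121 unprocessed pseudogenes. The share of reads on snRNA genes was 0.164 ± 0.0517% in UCMS and 0.260 ± 0.156% in control libraries (two-sided permutation p = 0.0816, adjusted p = 0.857 over 20 measures).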
